A study of Mus musculus with 20 samples.

Results

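The 10 genes described here, of 23413 gene names in the count tables, are core parts and direct outputs of the circadian clock. They were taken by name: the period genes Per1, Per2 and Per3, the cryptochrome Cry1, the activators Arntl and Clock, the REV-ERB repressors Nr1d1 and Nr1d2, and the output factors Dbp and Tef. All 10 had counts in all 20 libraries, from 66 for Dbp in the thinnest case to 13730 for Tef, and all 10 passed the filter on low counts that left 15660 genes for testing. RNA had been extracted from frozen brain cortex of 22-month-old APOE4 knock-in mice, which carry a human APOE4 allele in place of the mouse gene, so that no wild-type or APOE3 mouse was compared. The mice lived under 12 h of light and 12 h of dark. From 10 months of age they received isocaloric amounts of a control diet (CD, written SD in the sample labels) or a ketogenic diet (KD) for 12 months. On the CD there were 5 females and 5 males, and on the KD 4 females and 6 males, with 1 library per mouse. The mice were fed once a day shortly before the dark phase, and tissue was collected after a fast about as long as that phase. The clock time at which each mouse was sampled is not given in the sources used here.

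In the mammalian clock, CLOCK and BMAL1, the product of Arntl, bind E-box sequences and switch on the period, cryptochrome, REV-ERB and Dbp genes. PER and CRY proteins then inhibit CLOCK and BMAL1, while REV-ERB proteins repress Arntl, so that in tissue sampled around the day Dbp and Nr1d1 peak at about the time when Arntl is low. DBP and TEF bind D-box sequences in further targets, Per3 among them, and Per1 and Per2 also respond to neuronal activity through cAMP response elements.

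The promoters of 9 of the 10 genes were found in the RefSeq table for GRCm38.p6, in 14 windows of 300 bases that run from 250 bases before a transcription start to 50 bases after it. The motifs searched, on both strands, were 4: the E-box CACGTG, the D-box TTATGTAA, the half-site TGACG of the cAMP response element, and the half-site AGGTCA of the element that REV-ERB and ROR proteins bind. None of these strings contains another. The windows of Per1 and Cry1 are printed because Per1, and Cry1 once the GC slope of the library was removed, moved with the immediate early genes, and those of Per3 and Nr1d2 because that pair passed the test across all genes with that slope in the model. Per1 had another window (chr11:69099902-69100201, plus strand), not printed, which held TGACG and none of the other motifs. Motif letters are in capitals, on whichever strand they were found, and each window is written 5′ to 3′ along the gene.
Per1 (chr11:69098699-69098998, plus strand): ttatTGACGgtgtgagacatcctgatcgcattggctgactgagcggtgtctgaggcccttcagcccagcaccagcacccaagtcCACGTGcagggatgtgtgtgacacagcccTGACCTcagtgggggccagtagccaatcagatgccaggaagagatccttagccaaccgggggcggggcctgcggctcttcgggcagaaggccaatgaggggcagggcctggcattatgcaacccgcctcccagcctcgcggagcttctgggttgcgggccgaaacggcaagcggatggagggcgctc
Cry1 (chr10:85185005-85185304, minus strand): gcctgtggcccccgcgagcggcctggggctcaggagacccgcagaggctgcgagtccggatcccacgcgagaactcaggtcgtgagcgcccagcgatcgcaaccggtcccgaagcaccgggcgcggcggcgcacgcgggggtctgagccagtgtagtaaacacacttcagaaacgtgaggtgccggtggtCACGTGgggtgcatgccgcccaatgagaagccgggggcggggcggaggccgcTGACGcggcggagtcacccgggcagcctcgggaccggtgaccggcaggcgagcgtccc
Per3 (chr4:151044616-151044915, minus strand): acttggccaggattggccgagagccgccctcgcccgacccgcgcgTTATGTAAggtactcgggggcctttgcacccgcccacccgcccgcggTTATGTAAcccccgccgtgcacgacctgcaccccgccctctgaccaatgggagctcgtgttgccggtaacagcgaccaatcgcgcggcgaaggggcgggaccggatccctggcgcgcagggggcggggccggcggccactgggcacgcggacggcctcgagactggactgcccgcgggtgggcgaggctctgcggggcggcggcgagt
Nr1d2 (chr14:18239057-18239356, minus strand): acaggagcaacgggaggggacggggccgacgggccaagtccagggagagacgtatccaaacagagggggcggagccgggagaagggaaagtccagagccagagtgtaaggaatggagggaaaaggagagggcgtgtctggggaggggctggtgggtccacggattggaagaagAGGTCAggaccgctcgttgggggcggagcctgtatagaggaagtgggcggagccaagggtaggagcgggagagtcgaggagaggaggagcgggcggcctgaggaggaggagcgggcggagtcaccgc
The E-box was present in 4 of the 14 windows, from 3 of the 9 genes, Per1, Cry1 and Tef, and in 7.15% of all 32851 windows in the table. The D-box was present in 1 of the 14, that of Per3, as 2 copies, against 0.938% of all windows. Per1 and Cry1 held the half-site TGACG (3 of 14 windows, 20.8% of all windows). Per1, Clock, Arntl and Nr1d2 held AGGTCA (4 of 14 windows, 16.3% of all). These matches describe the letters in the windows and were not measured as binding sites.

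Library totals ran from 12207161 to 29109990 counts. The library numbers fall into 2 runs of 10, here called series 1 and series 2, each with mice of every group. Totals were 21015275 to 29109990 in series 1 and 12207161 to 17697342 in series 2, so the values of series 1 carry less counting error. Some libraries stood apart. The summed level of 12 striatal marker genes was 2490 to 3170 CPM (counts scaled by the library total) in KD females E61, E68 and E207, 3760 CPM in KD male E59 and 1140 CPM in CD female E249, against 239 to 636 CPM in the other 15, and none of the 12 was at 0 in all libraries. KD male E59 also had 3910 CPM of 8 choroid plexus markers, against 218 to 542 CPM elsewhere. The markers of cortical excitatory neurons, which fit the labelled tissue, were present in all 20 libraries, from 407 to 1010 CPM over 8 genes. They were lowest in KD females E61 (407 CPM), E68 (495 CPM) and E207 (582 CPM) and in CD female E249 (458 CPM). In all other libraries they were at 739 to 1010 CPM. These lowest libraries were the females with raised striatal markers, so tissue content and diet were partly aligned in females. The library labelled CD female E228 held 14 CPM of the Y-linked gene Ddx3y, against 1.64 CPM in CD female E249 and at most 0.478 CPM in the other females. KD female E227, at 343 CPM, was the 1 KD female without raised striatal markers. The diet values of Cry1 and Arntl are also given without E249, E228, E227 and E59, and without these 4 libraries the counts of clock genes called for diet and sex were 0 as well.

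Per kilobase of exon, the order of the levels was led by Nr1d2 at 58.2 ± 11 CPM per kilobase (SD, n = 20) and Tef at 49.5 ± 6.51. Clock followed at 15.9 ± 2.48, then Cry1 at 8.16 ± 1.15, Nr1d1 at 8.07 ± 2.71 and Arntl at 6.65 ± 1.05. The period genes and Dbp were lowest, with Per2 at 4.67 ± 1.27, Per3 at 4.00 ± 0.757, Per1 at 3.49 ± 1.45 and Dbp at 3.22 ± 1.13 CPM per kilobase. Tef was above Clock and Clock above Cry1 in 20 of 20 libraries, and Arntl was above Per2 in 19. The other neighbours changed places, with Nr1d2 above Tef in 15 libraries, Cry1 above Nr1d1 in 11 and Per1 above Dbp in 11, and their ranges overlapped.

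The genes differed in how much they varied between mice. The ratio of the highest to the lowest library was 4.99 for Per1, 3.61 for Dbp, 3.6 for Nr1d1 and 3.11 for Per2, against 1.67 for Clock and 1.68 for Tef. After group and series means were removed, the SD of log2 CPM was 0.606 for Per1, 0.483 for Dbp and 0.47 for Nr1d1, where the median over all genes tested was 0.278. It was 0.141 for Tef and between 0.175 and 0.316 for the other 6 genes. The plot of CPM by mouse gives all 200 values.

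**Figure D1:**
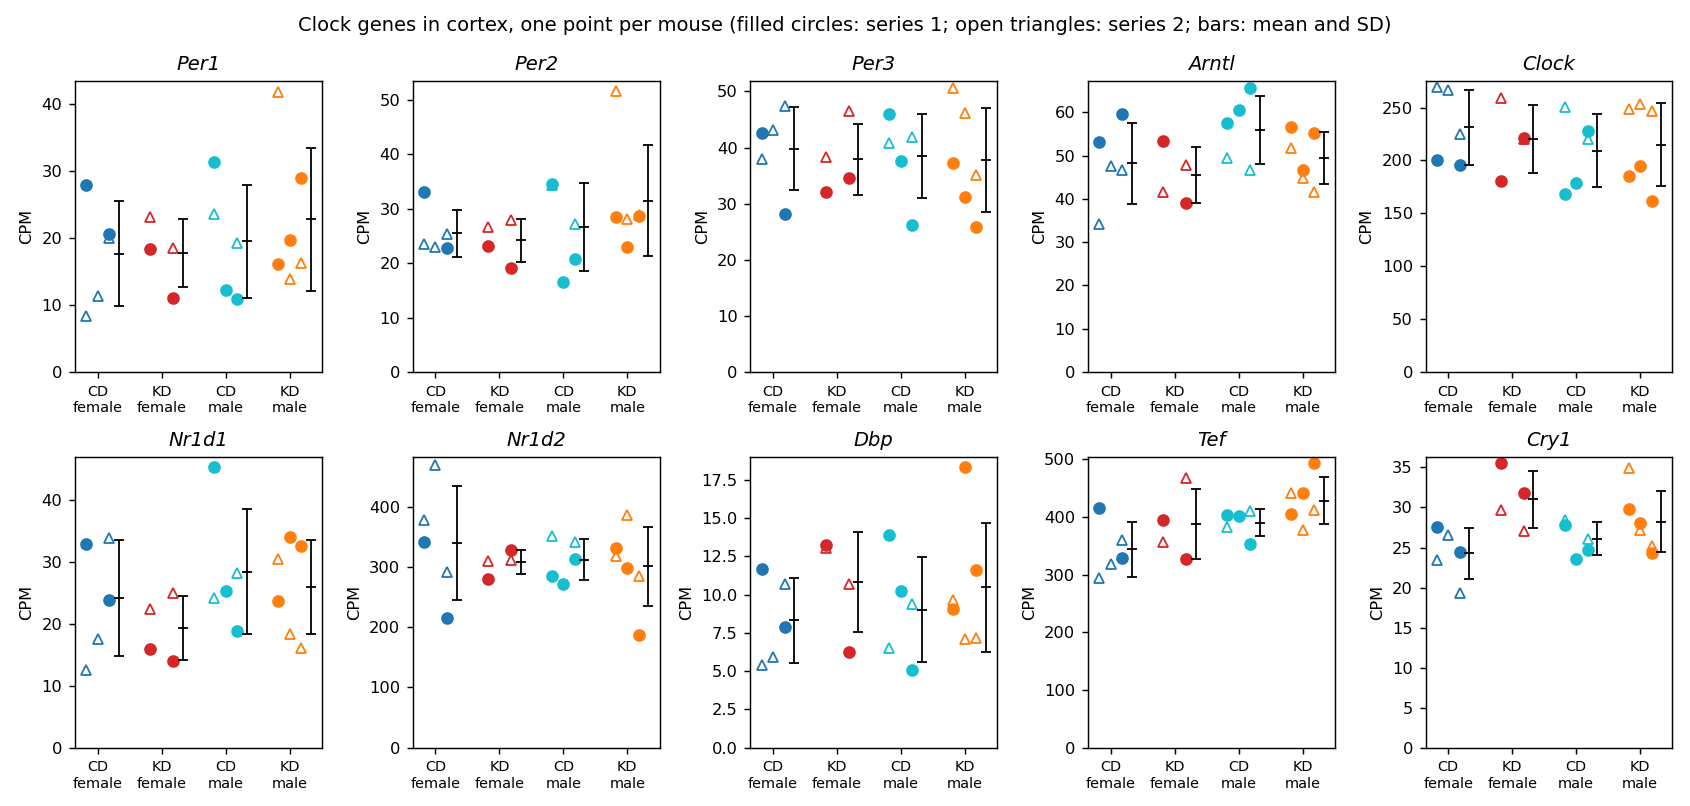
Level of each of the 10 clock genes in CPM (counts scaled by the library total, vertical axis from 0) in each of the 20 mice, by diet and sex, with filled circles for series 1, open triangles for series 2, and bars for the group mean and SD. The groups overlap in every panel; Per1 ranges from 8.36 to 41.7 CPM and Tef from 294 to 494 CPM.

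The question of the study was what the KD does in APOE4 mice of each sex, and here it was asked of the clock genes. None of the 10 differed between KD and CD by the rule of the study, FDR 0.1 with a 1.5-fold change, in females, in males or averaged over the sexes. The rule called 0.0447% of the 15660 genes in females, 0% in males and 0.268% averaged over the sexes. Only the thresholds are those of the study, which used RUVg and reported more changed genes in each sex than were called here. With RUVg recoded with 1 factor, 34 genes were called in females and 0 in males. DESeq2's Wald test, run as a second tool, also called 0 of the 10 in each. At an unadjusted p under 0.05 edgeR's quasi-likelihood test gave 1 of the 10 in females, 0 in males and 1 averaged over the sexes, in each case Cry1. That level was passed by 5.86% of all genes as higher and 5.5% as lower in females, by 3.56% in either direction in males, and by 7.41% as higher and 6.44% as lower averaged over the sexes. The median log2 value of the 10 was -0.091 in females, 0.038 in males and -0.013 averaged over the sexes, and that of all genes tested was 0.013, -0.003 and 0.006.

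Cry1, which encodes a repressor of CLOCK and BMAL1, gave the smallest p for the diet. In KD females it was at 35.5 (E61), 31.7 (E68), 29.7 (E207) and 27.1 CPM (E227), and in CD females at 27.6 (E62), 26.5 (E265), 24.5 (E67), 23.4 (E249) and 19.3 CPM (E228). Of the KD females 3 were above every CD female, and E227 lay just under the highest of them. The means were 31.0 ± 3.56 CPM (SD, n = 4) on KD and 24.3 ± 3.20 CPM (SD, n = 5) on CD. The log2 fold change was 0.29 (standard error 0.122, 95% interval 0.038 to 0.548), with an adjusted p = 0.361 in edgeR's test, which does not pass. E61, E68 and E207 were also the 3 KD females with 2490 to 3170 CPM of striatal markers, and with that score in the model the female value of Cry1 was 0.31 and its unadjusted p was no longer under 0.05. The same held in each series alone and without E61, E68 or E228. In males Cry1 was at 24.3 to 34.9 CPM on KD (median 27.6, n = 6), and on CD at 28.4 (E251), 27.8 (E51), 26.0 (E264), 24.7 (E66) and 23.5 CPM (E58). E213 (34.9 CPM) and E53 (29.8 CPM) on KD were above every CD male and the other 4 lay within the CD range, and the log2 fold change was 0.10 (interval -0.128 to 0.332). The diet by sex interaction, which tests the difference between the sexes itself, was 0.19 (interval -0.153 to 0.535, adjusted p = 1). Averaged over the sexes, Cry1 had a log2 fold change of 0.20 (standard error 0.0818, interval 0.026 to 0.369, adjusted p = 0.276). Without E249, E228, E227 and E59 the averaged value was 0.16 with an adjusted p = 0.246. In the females that this leaves, striatal markers were at 2490 to 3170 CPM in every KD mouse and at 239 to 326 CPM in every CD mouse, so diet and striatal RNA cannot be told apart there.

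Arntl, the gene of the activator BMAL1, lay in the other direction. Its CPM in KD females was 53.4 (E61), 47.8 (E227), 41.6 (E207) and 39.0 (E68), and in CD females 59.7 (E67), 53.1 (E62), 47.6 (E265), 46.8 (E228) and 34.2 (E249). In KD males it was at 41.7 to 56.7 CPM (median 49.3, n = 6), and in CD males at 65.7 (E66), 60.6 (E58), 57.5 (E51), 49.5 (E251) and 46.7 CPM (E264). The highest mouse of each sex was on CD, and the groups overlapped in both sexes. Its averaged log2 fold change was -0.16 (standard error 0.0807, interval -0.333 to 0.005, adjusted p = 0.379). Without E249, E228, E227 and E59 it was -0.23 with an adjusted p of 0.0709 in edgeR's test. Without E249 alone it was -0.21 with an adjusted p of 0.0922, and both values were past FDR 0.1 but short of 1.5-fold. With the fold limit, the first fit called 1145 of 15895 genes and the second 791 of 15710, against 42 of 15660 with all libraries. At an unadjusted p under 0.05 they held 3725 and 3191 genes. Both fits leave out the 1 CD female with raised striatal markers, and the first also the 1 KD female without them, which aligns diet with striatal RNA in females. The value was -0.30 in series 1 and -0.03 in series 2. Once the striatal score entered the model it was -0.05, and the part of the striatal RNA in the averaged value was not tested. In bulk tissue, fewer cells of a type and less RNA per cell cannot be told apart.

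Dbp and Nr1d1, both driven by E-boxes, had the largest averaged values and wide intervals. Dbp was at 13.3 (E61), 13 (E207), 10.7 (E227) and 6.25 CPM (E68) in KD females and at 11.7 (E62), 10.7 (E228), 7.86 (E67), 5.96 (E265) and 5.41 CPM (E249) in CD females. In males it was at 7.11 to 18.4 CPM on KD (median 9.34, n = 6), and on CD at 13.9 (E51), 10.2 (E58), 9.37 (E264), 6.53 (E251) and 5.08 CPM (E66). The groups overlapped in both sexes, and the averaged log2 fold change of Dbp was 0.27 (interval -0.154 to 0.691). Nr1d1 was at 25.0 (E227), 22.5 (E207), 16.0 (E61) and 14.1 CPM (E68) in KD females and at 33.8 (E228), 33 (E62), 24 (E67), 17.6 (E265) and 12.6 CPM (E249) in CD females. It was at 16.2 to 34.0 CPM in KD males (median 27.2, n = 6), and in CD males at 45.4 (E51), 28.3 (E264), 25.3 (E58), 24.3 (E251) and 18.8 CPM (E66). Here too the groups overlapped, and the averaged log2 fold change was -0.25 (interval -0.657 to 0.151). With the GC slope of the library, a measure defined with the pair results, as a covariate it was -0.30 with an adjusted p of 0.0905 in edgeR's test, past FDR 0.1 but short of 1.5-fold. In that fit 385 of 15660 genes were called with the fold limit, and 3477 had an unadjusted p under 0.05.

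Of the other 6 genes, averaged over the sexes, Tef had a log2 fold change of 0.12 (interval -0.025 to 0.258) and Nr1d2 one of -0.12 (interval -0.377 to 0.129). Per3 was at -0.10 (interval -0.314 to 0.124), Clock at -0.06 (interval -0.221 to 0.112), Per1 at 0.08 (interval -0.443 to 0.596) and Per2 at 0.03 (interval -0.258 to 0.316). The intervals of Clock, Tef, Per2, Per3, Nr1d2, Cry1 and Arntl excluded a 1.5-fold change of the averaged level in either direction, and those of Per1, Dbp and Nr1d1 did not.

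**Figure D2:**
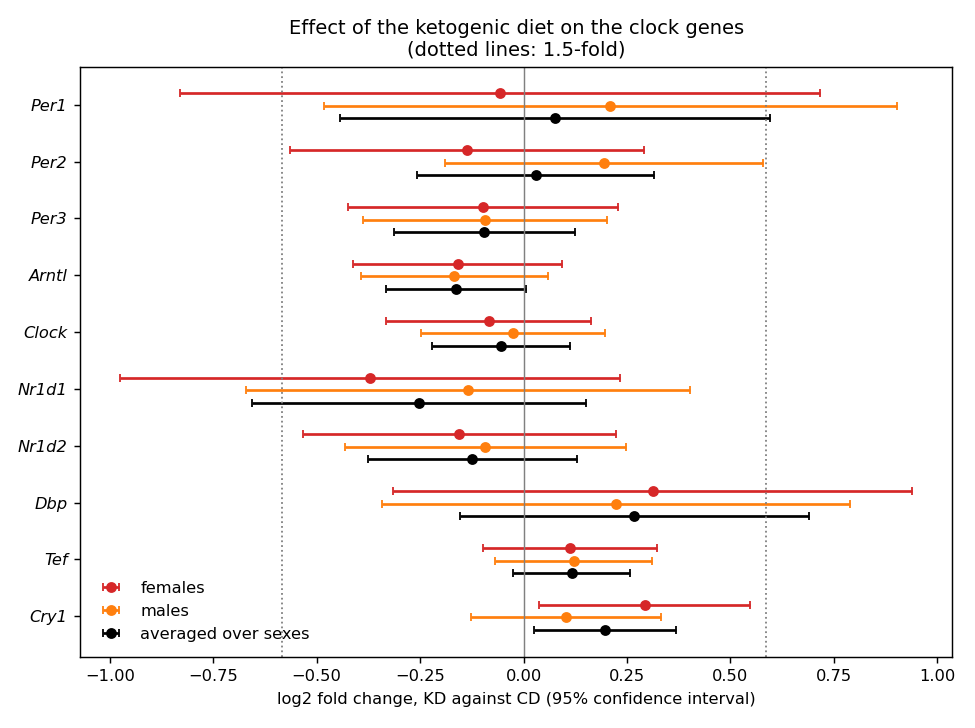
Log2 fold change of KD against CD for each clock gene (points) with its 95% confidence interval (bars), in females, in males and averaged over the sexes, from edgeR's fit of all 20 libraries; the dotted lines mark a 1.5-fold change. Cry1 in females (0.29, interval 0.038 to 0.548) and Cry1 averaged over the sexes (0.20) are the intervals that lie wholly on one side of 0.

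For the diet by sex interaction 0 of the 10 genes passed (0% of all genes), and 0 had an unadjusted p under 0.05, which 2.14% of all genes had. Its values ran from -0.33 for Per2 to 0.19 for Cry1. Between the sexes, averaged over diets, 0 of the 10 passed (0.134% of all genes), and DESeq2 also called 0. Tef was the 1 gene at an unadjusted p under 0.05, lower in females by a log2 value of -0.18 (standard error 0.0681, adjusted p = 0.278), a level that 4.96% of all genes passed in that direction. Without E249, E228, E227 and E59 it was -0.21 with an adjusted p of 0.0645 in edgeR's test, past FDR 0.1 but short of 1.5-fold. In that fit 757 of 15895 genes were called with the fold limit, and 3848 had an unadjusted p under 0.05.

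The 2 library series differed more than the diets did. No clock gene passed FDR 0.1 with a 1.5-fold change between series, where 7.24% of all genes did, and DESeq2 called 0 as well. At FDR 0.1 without a fold limit, Clock (0.39, adjusted p = 0.00199), Per3 (0.37, adjusted p = 0.0165) and Nr1d2 (0.30, adjusted p = 0.0785) were higher in series 2 and Arntl (-0.21, adjusted p = 0.0597) was lower in edgeR's test. That is 3 of 10 higher and 1 of 10 lower, against 17.6% and 15.6% of all genes, so the clock genes stood near the background. With the GC slope as a covariate Per1 was called, higher in series 2 by 0.70 (adjusted p = 0.0262), as 4.41% of all genes were called. In that fit Per1, Per2, Per3, Clock and Nr1d1 were higher at FDR 0.1 without a fold limit, against 11.6% of all genes, and Arntl (adjusted p = 0.328) and Nr1d2 (adjusted p = 0.788) did not pass. Clock was at 162 to 227.8 CPM in series 1 and at 219.9 to 269.7 CPM in series 2. The series also differed in depth, and the parts of depth and of the collection or preparation of the mice cannot be told apart.

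The other genes of the pathway were read from a list of 27, with further repressors and activators, kinases and ubiquitin ligases of the clock, all of which passed the filter. None of the 27 passed FDR 0.1 with 1.5-fold in any diet comparison, and the median of their log2 values was -0.112 for females, -0.05 for males and -0.079 averaged over the sexes. In females 2 of 27 were higher at an unadjusted p under 0.05, among them Fbxl21 (0.55, adjusted p = 0.371), a ubiquitin ligase part that acts on cryptochromes. In females 3 were lower at that level: Hlf (-0.63, adjusted p = 0.349), the closest relative of Dbp and Tef, Bhlhe40 (-0.60, adjusted p = 0.34), an E-box repressor, and Prkaa2 (-0.38, adjusted p = 0.289), a catalytic subunit of AMP kinase. In males Tipin (-0.35, adjusted p = 1), the partner of Timeless, was lower, as 1.19% of all genes were. Averaged over the sexes Fbxl21 (0.44) was higher, and Tipin (-0.31), Bhlhe40 (-0.41), Hlf (-0.43) and Prkaa2 (-0.25) were lower, with adjusted p from 0.178 to 0.261. Against the 7.41% of all genes higher and 6.44% lower at this level, 1 of 27 is below and 4 of 27 above the background share.

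Phase-like co-variation across mice would be a joint shift of the E-box genes with Arntl on the other side. The question was first put to the 45 pairs of the 10 genes, over the log2 CPM of 20 libraries, with 2-sided permutation tests of 100000 resamples. Of the 45, 15 had a permutation p under 0.05, with 11 positive and 4 negative, and 9 kept an adjusted p under 0.05 after Benjamini-Hochberg adjustment over the 45 pairs. After group and series means were removed the count was 13, with 9 positive and 4 negative. Pairs of other genes were not counted, so neither these counts nor those given below have a background share. In the fits across all genes given below, 20.7% of all genes rose with Dbp and 17.8% fell. The genes paired as Per1 with Per2 and Nr1d1, Nr1d1 with Dbp, and Clock with Nr1d2, while Clock ran against Dbp.

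Per1 and Per2, which were highest in the same mouse, were related by r = 0.74 (permutation p = 0.00017, adjusted 0.0033) and rho = 0.64 (permutation p = 0.00325). Per1 was at 41.7 CPM and Per2 at 51.7 CPM in KD male E213, and without the 2 libraries farthest from the median, E249 and E213, r was 0.68. Within series 1 r was 0.83 and within series 2 it was 0.80. For Nr1d1 and Dbp r was 0.66 (permutation p = 0.00193, adjusted 0.0202) and rho 0.65 (permutation p = 0.00274), with 0.62 in series 1, 0.69 in series 2 and 0.54 without E51 and E249. For Clock and Nr1d2 r was 0.75 (permutation p = 6e-05, adjusted 0.0027) and rho 0.74 (permutation p = 0.00032), with 0.63 and 0.69 in the 2 series and 0.68 without E51 and E64. Clock and Dbp had r = -0.61 (permutation p = 0.00434, adjusted 0.0325) and rho = -0.59 (permutation p = 0.00693), with -0.67 and -0.68 in the 2 series and -0.57 without E51 and E64.

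No opposition of Arntl to the E-box genes was detected. Arntl and Dbp had r = 0.07 (permutation p = 0.783) and rho = 0.07 (permutation p = 0.757), with -0.23 in series 1, 0.17 in series 2 and 0.12 without E66 and E249. Arntl and Nr1d1 had r = 0.43 (permutation p = 0.0595) and rho = 0.41 (permutation p = 0.0767), with 0.24 and 0.67 in the 2 series and 0.43 without E66 and E249. The log2 difference of Dbp minus Arntl within a library, which library scaling does not touch, ran from -3.67 in CD male E66 to -1.34 in KD male E59, with a median of -2.46. Its medians were -2.64 (n = 5) on CD and -2.08 (n = 4) on KD in females, and -2.55 (n = 5) on CD and -2.46 (n = 6) on KD in males, and the ranges of KD and CD overlapped in both sexes.

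A property of the libraries moved with these genes. For each library a GC slope was computed over 13817 genes other than the 10. It is the slope of log2 CPM, centred on each gene's mean, on the GC content of the gene's longest transcript. It ran from -0.591 log2 CPM per 10 points of GC in CD female E249 to 0.479 in KD male E64, with a median of 0.193 in series 1 and -0.135 in series 2, and followed the first principal component of the libraries (r = 0.99), which held 35.2% of the variance left after groups and series. With groups and series removed, the GC slope had r = 0.89 with Nr1d1, 0.81 with Per1, 0.79 with Dbp, 0.75 with Tef, -0.64 with Nr1d2 and -0.84 with Clock. The permutation p of these 6, over residuals of 20 libraries, was 1e-05 for Nr1d1, the smallest that the resamples can give, 3e-05 for Clock and at most 0.00796 for the others, with adjusted values up to 0.0298 over the 30 relations of the genes with 3 library measures. Within series 1 and series 2 the r was 0.79 and 0.90 for Nr1d1 and -0.88 and -0.85 for Clock. The other 4 genes had values from -0.30 for Cry1 to 0.47 for Per2. The genes lined up by their own GC content, from Dbp at 61.6% and Per1 at 59.4% down to Nr1d2 at 41.8% and Clock at 40.9%. Over the 10 genes that content had r = 0.89 with the values above. Such an order is in part built in, because the slope is by definition a trend of all these levels over GC content. The share of all genes that followed the slope is not given here, so the order is not particular to clock genes. What set the GC slope of a library was not tested.

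**Figure D3:**
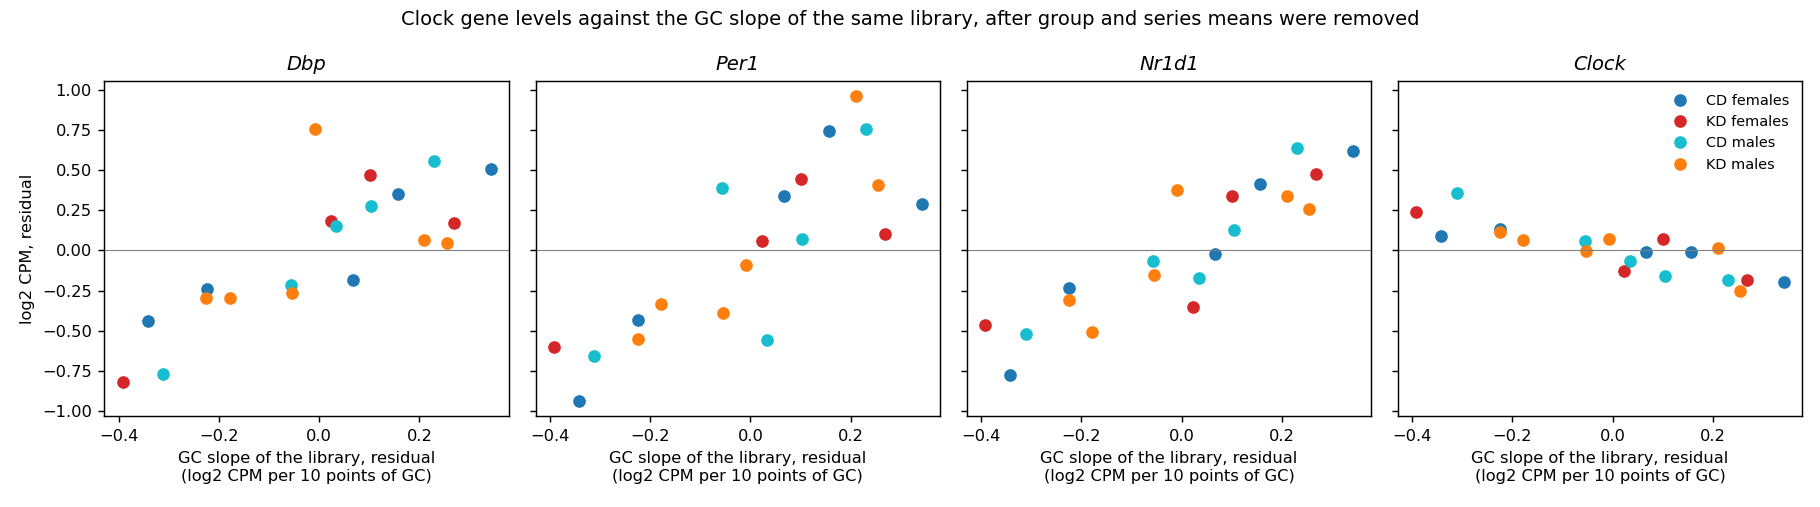
Log2 CPM of Dbp, Per1, Nr1d1 and Clock (vertical axis) against the GC slope of the same library (horizontal axis, log2 CPM per 10 points of GC), both as residuals after group and series means were removed, 1 point per mouse. Dbp (r = 0.79), Per1 (r = 0.81) and Nr1d1 (r = 0.89) rise along the axis and Clock (r = -0.84) falls.

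With the GC slope removed as well, 7 of the 45 pairs had a permutation p under 0.05, all positive, and 4 kept an adjusted p under 0.05 over the 45 pairs. These were Per1 with Per2 (r = 0.83, adjusted permutation p = 0.0072), Per3 with Nr1d2 (0.77, adjusted 0.0148), Per2 with Cry1 (0.75, adjusted 0.0215) and Per1 with Cry1 (0.72, adjusted 0.0215). Before the slope was removed Per1 and Cry1 had r = 0.15 and Per2 and Cry1 had r = 0.49 on the residuals. On log2 CPM the r of Per1 and Cry1 was 0.17, with -0.24 in series 1, 0.47 in series 2 and -0.19 without E249 and E213. That of Per2 and Cry1 was 0.31, with -0.01 and 0.67 in the 2 series and -0.12 without E58 and E213. The pairs Nr1d1 with Dbp, Clock with Nr1d2 and Clock with Dbp went to 0.42, 0.24 and -0.01, and Per1 with Nr1d1 from 0.81 to 0.32. Arntl and Dbp went to -0.43 (permutation p = 0.124) and Arntl and Nr1d1 to -0.18 (permutation p = 0.534), so that a relation of opposite sign was not detected in this number of mice. The SD of the residuals fell from 0.606 to 0.365 for Per1, from 0.47 to 0.219 for Nr1d1 and from 0.176 to 0.098 for Clock, and stayed at 0.17 to 0.18 for Arntl and Cry1.

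**Figure D4:**
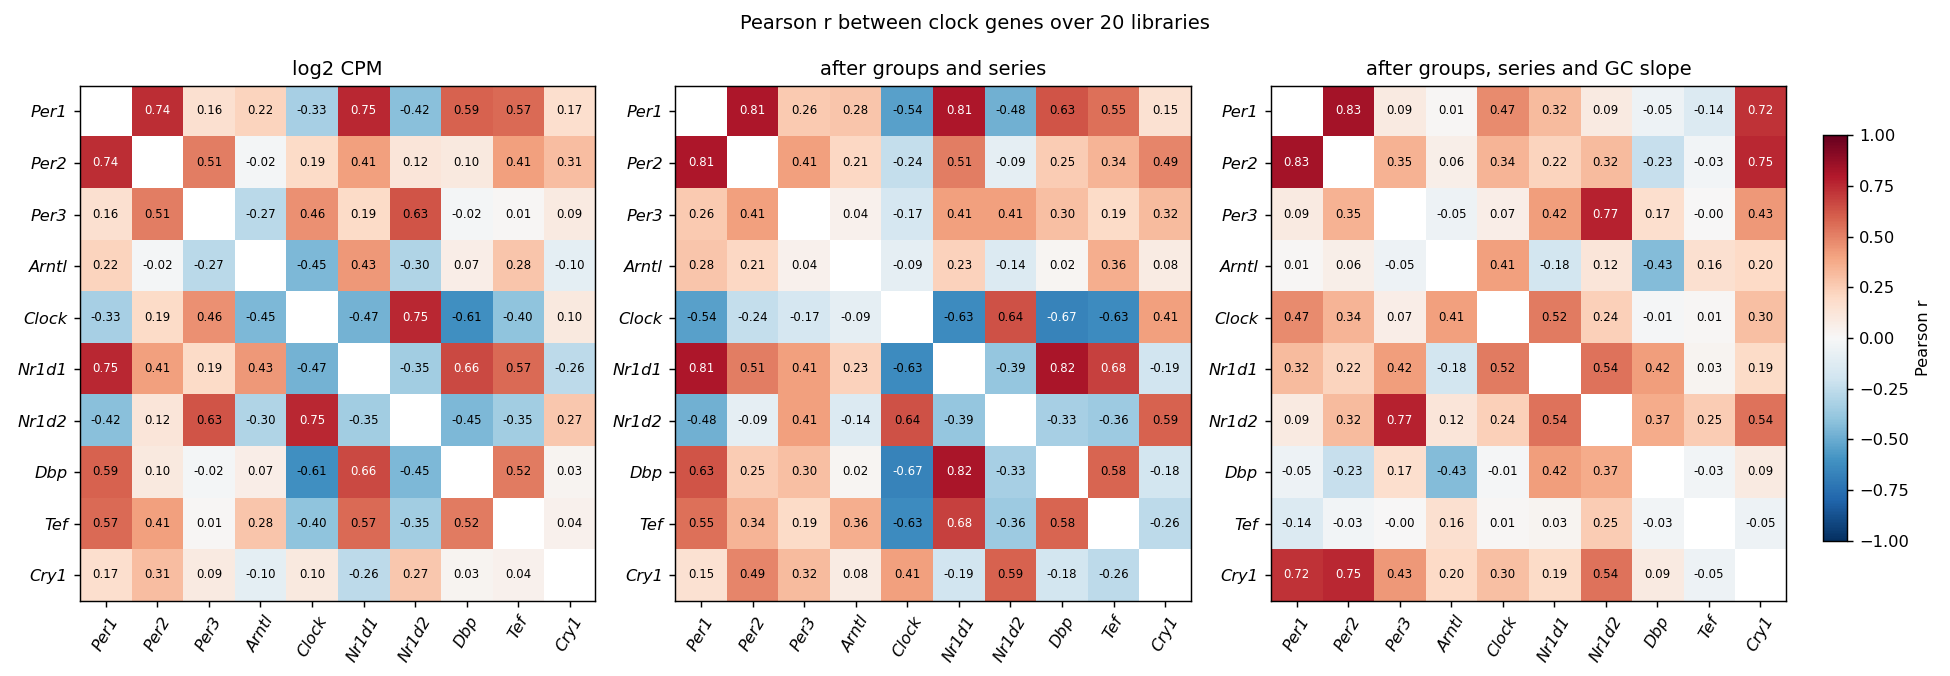
Pearson r between each pair of the 10 clock genes over 20 libraries, on log2 CPM (left), after group and series means were removed (middle), and after the GC slope of the library was removed as well (right), with red for positive and blue for negative values. The block of Per1, Nr1d1, Dbp and Tef against Clock is seen in the middle panel and not on the right, where Per1, Per2 and Cry1 have r of 0.72 to 0.83.

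The same question was put to all genes by fitting the slope of each gene on the log2 CPM of 1 clock gene, with groups and series in the model. Of the other 9 clock genes, Nr1d1 (slope 0.375 log2 per SD of Dbp, adjusted p = 0.00279 in edgeR's test), Per1 (0.376, adjusted p = 0.0265) and Tef (0.08, adjusted p = 0.0681) rose with Dbp and Clock (-0.112, adjusted p = 0.02) fell. Of all genes 20.7% rose with Dbp and 17.8% fell, so that 3 of 9 rising and 1 of 9 falling were near the background. With the GC slope in the model 0 of the 9 passed, where 1.53% of all genes rose and 0.39% fell, and 0 had an unadjusted p under 0.05. With Arntl 0 of the 9 passed, where 0.773% of all genes rose and 1.98% fell, and DESeq2 also gave 0. Adding the GC slope gave 0 of 9 and 0% of all genes in each direction.

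With Per1 as the reference, Per2, Nr1d1, Dbp and Tef rose and Clock and Nr1d2 fell, against 22% and 18.5% of all genes. Once the GC slope was added no gene of the 15659 passed, 0% in each direction, and Per2 (slope 0.368, adjusted p = 0.257) and Cry1 (0.19, adjusted p = 0.641) had an unadjusted p under 0.05. The pair that passed across all genes with the GC slope in the model was Per3 and Nr1d2, targets of D-box and E-box factors. Nr1d2 rose by 0.217 per SD of Per3 (adjusted p = 0.0403, where 1.79% of all genes rose) and Per3 by 0.256 per SD of Nr1d2 (adjusted p = 0.0197, where 2.85% rose). In the model with groups and series alone neither passed, with slopes of 0.141 (adjusted p = 0.467) and 0.107 (adjusted p = 0.225). On log2 CPM, where both were higher in series 2, the pair had r = 0.63 (permutation p = 0.00225) and rho = 0.49 (permutation p = 0.0307), with 0.56 in series 1, 0.21 in series 2 and 0.56 without E66 and E64.

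Per1 and Per2 moved with the immediate early genes, transcription factors and other genes that neurons switch on within minutes of activity. The summed level of 14 of them ran from 126 CPM in CD female E249 to 725 CPM in KD male E213, the mouse with the highest Per1 and Per2. Per1 in KD males was at 13.9 to 41.7 CPM (median 18, n = 6), and in CD males at 31.4 (E51), 23.5 (E251), 19.3 (E264), 12.3 (E58) and 10.9 CPM (E66). In CD females it was at 27.8 (E62), 20.6 (E67), 20.003 (E228), 11.4 (E265) and 8.36 CPM (E249), and in KD females at 23.2 (E207), 18.5 (E227), 18.3 (E61) and 11 CPM (E68). The lowest Per1 library, E249, was also lowest in the 14 genes.

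On log2 CPM the mean score of the 14 genes had r = 0.82 with Per1 (permutation p = 1e-05, adjusted 0.00015) and 0.74 with Per2 (permutation p = 0.00015, adjusted 0.0008), where 1e-05 is the smallest p that the resamples can give, and rho was 0.71 (permutation p = 0.00056) and 0.60 (permutation p = 0.00568). Without the 2 libraries farthest in the score these were 0.67 and 0.64. Within series 1 and series 2 r was 0.69 and 0.91 for Per1 and 0.82 and 0.81 for Per2. With groups, series and GC slope removed r was 0.75 for Per1 (permutation p = 0.00115, adjusted 0.0108), 0.77 for Per2 (permutation p = 0.00217, adjusted 0.0108) and 0.82 for Cry1 (permutation p = 0.00029, adjusted 0.0058). Cry1 had r = 0.38 before any removal (permutation p = 0.0928), with -0.07 in series 1 and 0.66 in series 2. Without the 2 libraries farthest in the score, E249 and E213, the r of Cry1 was 0.10 (permutation p = 0.689). For Arntl, Per3, Nr1d1, Nr1d2, Dbp, Tef and Clock the value with groups, series and GC slope removed was between -0.31 and 0.33.

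Gene by gene, 13 of the 14 rose with Per1 at FDR 0.1 against 22% of all genes, and with the GC slope in the model 11 of the 14 did so at an unadjusted p under 0.05, against 3.35% of all genes, with 0 at FDR 0.1. With Per2 all 14 had an unadjusted p under 0.05 and a positive slope (7.32% of all genes), and 10 did with the GC slope (4.33%). With Cry1 these counts were 7 of 14 (4.61%) and 14 of 14 (4.8%). The 14 genes did not pass in any diet comparison, and the median of their log2 values was 0.012 for females and 0.014 for males. Between the sexes, averaged over diets, all 14 were lower in females, with a median of -0.482, and 0 passed FDR 0.1. Of these, 3 had an unadjusted p under 0.05 in edgeR's test, against 4.96% of all genes. In that comparison Per1 was at -0.256, Per2 at -0.245 and Cry1 at 0.005. Whether the state of the mice before collection set these levels was not tested.

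**Figure D5:**
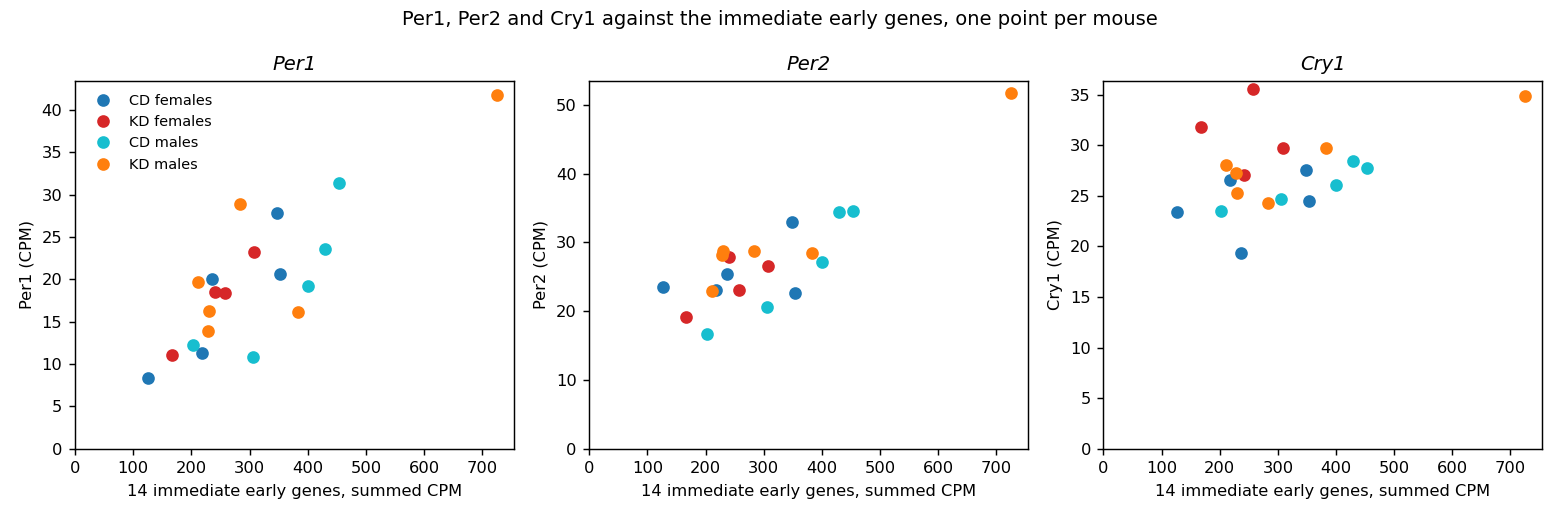
Level of Per1, Per2 and Cry1 in CPM (vertical axes from 0) against the summed CPM of 14 immediate early genes in the same library (horizontal axis), 1 point per mouse, coloured by diet and sex. KD male E213, at 725 CPM of the 14 genes, is highest in Per1 (41.7 CPM) and Per2 (51.7 CPM).

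Marker genes of other tissue moved with Dbp and Arntl. All 12 striatal markers fell with Arntl at an unadjusted p under 0.05, 5 of these at FDR 0.1, where 10.5% of all genes fell at that p. After adding the GC slope all 12 fell at an unadjusted p under 0.05 (9.04% of all genes) and 0 at FDR 0.1. All 12 rose with Dbp at FDR 0.1 with the GC slope in the model, against 1.53% of all genes, and 2 did without it. The mean score of the 12 had r = 0.72 with Dbp (permutation p = 0.00208, adjusted 0.0108) and -0.54 with Arntl (permutation p = 0.0437, adjusted 0.175) after groups, series and GC slope were removed. With groups and series alone removed r was 0.21 for Dbp (permutation p = 0.423) and -0.58 for Arntl (permutation p = 0.0201, adjusted 0.0671). On log2 CPM the values were 0.35 for Dbp and -0.40 for Arntl, and without the 2 libraries farthest in the score -0.04 for Dbp and -0.33 for Arntl. With the GC slope in the model 6 of 8 choroid plexus markers rose with Dbp at FDR 0.1, against 1.53% of all genes. KD male E59 was highest in Dbp (18.4 CPM) and in these markers (3910 CPM, against 218 to 542 CPM elsewhere). That fit without E59 is not given here. In the same model 5 of the 8 fell with Arntl at an unadjusted p under 0.05, against 9.04%. Of the 8 cortical excitatory markers 5 rose with Arntl at that p, against 8.96% of all genes, and 1 fell. The part of the tissue held in each piece of cortex in the levels of Dbp and Arntl was not tested.

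Of the 27 other clock genes, Bhlhe40 (0.373 log2 per SD, adjusted p = 0.082) and Nfil3 (0.438, adjusted p = 0.0984), a D-box repressor, rose with Arntl in edgeR's test. With Dbp 7 rose, Cry2 (0.135), Csnk1d (0.137), Csnk1e (0.144), Csnk2b (0.14), Btrc (0.085), Usp2 (0.133) and Gm129 (0.273), the older name of the repressor Ciart. Another 6 fell with Dbp, among them Nampt (-0.188), Sirt1 (-0.14), Prkaa1 (-0.139), Csnk2a1 (-0.087) and Tipin (-0.117). These 7 and 6 of 27 are near the 20.7% and 17.8% of all genes. In the model with the GC slope 1 of the 27 was past FDR 0.1, Nfil3, which fell by 0.465 per SD of Dbp (adjusted p = 0.0756).

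Among the 5 genes most like Dbp over the residuals of 20 libraries were Zfyve28 (r = 0.928), Slc9a5 (0.92), Ccdc88c (0.914) and Shank3 (0.903), and the 5 most unlike were Amn1 (-0.951), A230046K03Rik (-0.937), Wdr36 (-0.924), Ndufaf1 (-0.922) and Rheb (-0.919). The 4 named as most like Dbp have a GC content of 55.7% to 62.4%, and the 4 most unlike with a known value one of 40.9% to 46.3%. For Arntl the highest were Trim32 (0.837), Ppme1 (0.826), Lamtor3 (0.818), Hs3st4 (0.807) and Hspa1l (0.806), and the lowest Fam214a (-0.838), Zfp820 (-0.811), Thap6 (-0.805), Zfp488 (-0.805) and Pld1 (-0.804). The 10 clock genes were left out of these rankings. Of all genes 0.645% had a higher r with Dbp than Nr1d1 had (0.82), and 13.1% a higher one than Per1 (0.63).

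Some of the counts are uncertain because genes overlap. On GRCm38, Nr1d1 (chromosome 11, 98767932 to 98775333, minus strand) shares exon sequence with Thra on the other strand, Dbp (chromosome 7, 45705088 to 45710203, plus strand) with Sphk2, Arntl (chromosome 7, 113207465 to 113314126, plus strand) with the antisense gene Gm45355, and Tef (chromosome 15, 81802421 to 81826863, plus strand) with Gm17597. The kit marks strand, and whether counting used it is not given in the sources used here. Thra averaged 186 CPM against 24.8 CPM for Nr1d1, and had r = 0.68 with Nr1d1 on the residuals and -0.55 with the GC slope removed. Sphk2 averaged 10.7 CPM against 9.65 CPM for Dbp, with r of 0.65 and -0.23. Per1 (chromosome 11, 69095217 to 69109960, plus strand), Per2 (chromosome 1, 91415982 to 91459324, minus strand), Nr1d2 (chromosome 14, 18204054 to 18239127, minus strand) and Cry1 (chromosome 10, 85131700 to 85185064, minus strand) overlap no other annotated gene. Per3 (chromosome 4, 151003652 to 151044665, minus strand) and Clock (chromosome 5, 76209868 to 76304792, minus strand) share no exon sequence with the genes that overlap them.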

How the data were processed

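Cortex libraries of 20 APOE4 knock-in mice were analysed, 1 per mouse, from tables of raw counts of reads per gene. The authors aligned reads to mm10 with STAR and deposited these counts without normalization; the annotation used for counting is not given in the sources used here. CPM was computed as the count scaled by the library total. Log2 CPM was computed on the 15660 genes kept, with library totals adjusted by upper-quartile normalization and 2 as the prior count. Groups and the library series came from the labels, where SD is the CD.

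Counts were tested in R 4.3.3 with edgeR 4.0.16 (filterByExpr, upper-quartile normalization, quasi-likelihood F test, Benjamini-Hochberg adjustment over 15660 genes). The model held 4 groups and the series, and genes were called at FDR 0.1 and 1.5-fold, the rule of the study. Co-variation was the slope on the standardised log2 CPM of a clock gene in the same model, called at FDR 0.1. The RUVg step of the study, whose factors are not stated, was recoded with 1 factor as an alternative. Residual correlations were tested by permuting in the space left by the covariates, with numpy 2.4.6 and scipy 1.17.1. Gene models, lengths and GC content came from GENCODE for GRCm38, where 21739 of 23413 names matched, and promoters from RefSeq GRCm38.p6.

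The 10 genes and all lists were chosen with earlier results of these data known. Values are named for the 10 genes, for the 27 other clock genes that were called or had an unadjusted p under 0.05 in a diet comparison or were called as co-varying with Dbp or Arntl, and for the 5 genes highest and lowest in residual r with Dbp and with Arntl. A few genes that this rule names are not reported here. Marker lists are given by summed level and counts. The GC slope and the fit without 4 libraries were chosen after seeing the data. The steps were tested on simulated data. Alternatives were TMM, DESeq2's size factors and the Wald test of DESeq2 1.42.0, other filters, no series term, a series on its own, a covariate for the striatal score, and each mouse left out in turn. In each of 41 within-group comparisons of a pair of libraries the counts differed beyond sampling noise (chi-square over degrees of freedom 6.9 to 109). The labels name separate animals. Library totals of at least 12207161 counts set the precision of low genes.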

Additional observations from a re-analysis of the deposited data

Results flagged for a closer look

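In 3 of the 48 sets of 4 to 6 mice compared for a single mouse far from the rest, 1 mouse stood apart by Dixon's test at the 95% level, which chance gives in about 1 set in 20. Per2 in CD females was 33 CPM in E62, with the next mouse at 25.4 CPM and the lowest at 22.7 CPM, a gap of 0.741 of the range (limit 0.71). Per2 in KD males was 51.7 CPM in E213, with the next mouse at 28.8 CPM and the lowest at 23.0 CPM, a gap of 0.797 of the range (limit 0.625). The same mouse had 725 CPM of the 14 immediate early genes. The log2 difference of Dbp minus Arntl in KD males was -1.34 in E59, with the next mouse at -2.24 and the lowest at -2.64, a gap of 0.692 of the range (limit 0.625). That library also had 3760 CPM of striatal and 3910 CPM of choroid plexus markers. The part of these other values in the 3 results was not tested.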

How the results depend on the processing

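Under every alternative run, each mouse left out included, 0 of the 10 genes were called at FDR 0.1 and 1.5-fold for the diet in females, in males and averaged over the sexes, for the interaction and for sex. Without a fold limit, Nr1d1 averaged over the sexes passed FDR 0.1 with the GC slope in the model (-0.30, adjusted p = 0.0905), Arntl averaged over the sexes without E249 or without E249, E228, E227 and E59, and Tef between the sexes without those 4 (-0.21, adjusted p = 0.0645). At an unadjusted p under 0.05 the count was 1 in females, 1 averaged over the sexes and 1 for sex, and over the alternatives 0 to 2, 0 to 3 and 0 to 2. It was 0 in females in series 2, with the striatal score and without E61, E68 or E228, 0 averaged over the sexes in series 2 and without E58, E61 or E228, and 3 there with the GC slope. Between series the count was 0, with 4 without a fold limit, 4 at an unadjusted p under 0.05 and 1 (Per1) with the GC slope in the model, where 5 passed FDR 0.1 without a fold limit. The count of genes co-varying with Dbp, 4, was 0 in series 1, 1 in series 2, 0 with the GC slope, and 3 to 4 when 1 mouse was left out. The count of pairs, 15, was 8 in series 1 and 7 on residuals with the GC slope removed. For these the cause was not tested, but each series alone has 10 libraries. Over all genes, the number called in females was 7, with 0 in series 2, with the striatal score, and without E61 or E207, 252 with the GC slope, 253 under DESeq2, 865 in series 1, 906 without E227, 1046 without E249 and 1827 without E249, E228, E227 and E59. Averaged over the sexes it was 42, with 0 in series 2, 385 with the GC slope, 791 without E249 and 1145 without those 4 libraries. In males it was 0 throughout. Between the sexes it was 21, and 757 without those 4 libraries.

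The values that changed sign belonged to genes that were not called. In series 1 alone these were Per1 (-0.28) and Per2 (-0.16) averaged over the sexes, and Nr1d2 (0.10), Dbp (-0.05) and Tef (-0.08) in females. In series 2 alone they were Per1 (0.58), Per2 (0.11) and Nr1d1 (0.08) in females, Per3 (0.09) and Clock (0.09) in males, and Per3 averaged over the sexes (0.00). With the striatal score they were Per1 (0.28), Per2 (0.13), Per3 (0.05) and Arntl (0.03) in females. Clock in males was 0.03 with no series term, 0.01 with RUVg and 0.00 with the GC slope, and Per2 averaged over the sexes was 0.00 with the GC slope. Without E249, E228, E227 and E59, Per1 (-0.03) and Per2 (-0.02) averaged over the sexes and Tef in females (-0.04) changed sign. Leaving out 1 mouse gave ranges across 0 for Per1 (-0.25 to 0.17), Per2 (-0.19 to 0.03) and Tef (-0.01 to 0.18) in females, for Per1 (-0.06 to 0.45), Per3 (-0.17 to 0.01), Clock (-0.07 to 0.07), Nr1d1 (-0.25 to 0.07) and Nr1d2 (-0.17 to 0.01) in males, and for Per1 (-0.05 to 0.19) and Per2 (-0.05 to 0.11) averaged over the sexes. The r of Per2 and Cry1 was -0.01 in series 1 and -0.12 without 2 libraries, that of Arntl and Dbp -0.23 in series 1 and -0.43 with the GC slope removed, and that of Arntl and Nr1d1 -0.18 with it removed. No paired analysis was possible because no replicate number is shared between groups.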
